A study of Mus musculus with 8 samples.

Results

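Complement is a set of plasma and cell-surface proteins, and the transcripts of 9 of its genes were followed in lung: the C1q chains C1qa, C1qb and C1qc, the classical components C2 and C4b, the central component C3, the alternative pathway protease Cfb, and the anaphylatoxin receptors C3ar1 and C5ar1. The genes were chosen by symbol, and each symbol was found through the Ensembl identifier of the count files. They are 9 of 55416 listed genes, and all 9 passed the filter on low counts among 18560 tested genes.

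Mice received LPS, the lipopolysaccharide of Gram-negative bacteria, with or without YW3-56, an inhibitor of protein arginine deiminases, and lung RNA-seq profiles were compared. The strain is C57BL/6 in the labels, and the methods give female C57BL/6J animals of 6 to 8 weeks. For RNA-seq, 1 side of the lung lobe was taken about 24 h after treatment. The control group (mice 1, 2 and 4) received DMSO by tail vein and then saline by the intraperitoneal route. The LPS group (mice 1, 6 and 7) received LPS at 35 mg/kg in saline, and the methods name no DMSO for it. The dual-treatment group, given LPS and YW3-56 (mice 2 and 5), received YW3-56 at 10 mg/kg in DMSO shortly before the same dose of LPS. YW3-56 and its DMSO vehicle therefore cannot be told apart when the dual-treatment group is compared with the LPS group. By the same account, LPS and the lack of a DMSO injection cannot be told apart when the LPS group is compared with control. Where LPS is said below to raise or lower a gene, this comparison with control is meant. Neither YW3-56 alone nor LPS with DMSO is among the groups, and the dual treatment has 2 mice in the labels and in the study's legend to its RNA-seq data, while its methods describe 3 per group. Total counts were 19061949, 19796242 and 20527836 in the control mice, 20818501, 19379911 and 19279724 in the LPS mice, and 19875939 and 20908608 in the dual-treated mice.

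Complement is started by 3 routes. C1q binds antibody or altered surfaces and begins the classical route, which cleaves C4 and C2, as the lectin route does with other proteases, while the alternative pathway uses C3 itself and factor B. All routes cleave C3, which coats targets and releases C3a, and later steps release C5a and build the membrane attack complex. C3a and C5a act on myeloid and other cells through C3ar1 and C5ar1. The liver makes most plasma complement, while macrophages are a main source of C1q and lung epithelium makes C3.

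Lung markers were abundant in every library. The 7 lung markers summed to between 37320 and 89650 CPM (counts scaled by library size and TMM factor), with Scgb1a1 the most abundant and none at 0. The 4 fibroblast markers, with Pdgfra the most abundant by mean over the 8 libraries and none at 0, summed to between 680 and 970 CPM. Hepatocyte markers were near absent, with a sum of at most 1.48 CPM for 6 genes and Serpina1a at 0 in all 8 libraries. LPS mice 6 and 7 stood apart from LPS mouse 1. The 6 squamous epithelial markers summed to 666 and 1900 CPM in LPS mice 6 and 7, against 0.653 CPM in LPS mouse 1 and at most 23.4 CPM in the other libraries, with Krt13 the most abundant by mean. The 6 skeletal muscle markers, with Acta1 the most abundant by mean, summed to 434 and 1158 CPM in LPS mice 6 and 7 and to at most 18.2 CPM elsewhere. Results of the members in comparisons with the LPS group are therefore also given with LPS mouse 1 alone. A list of 7 adipocyte genes, added after the data were seen, was highest in control mouse 2 at 386 CPM and dual-treated mouse 2 at 955 CPM, and lay between 68.3 and 288 CPM in the other 6 libraries. Its most abundant gene by mean, Fabp4, is also in the alveolar macrophage list. Apart from leaving these libraries out, the part of these tissues in the complement values was not tested.

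LPS raised 5 of the 9 members and lowered 2, the dual treatment raised 6 above control and lowered 0, and 4 members were higher and 3 lower in the dual-treatment group than in the LPS group. A gene was called when its Benjamini-Hochberg adjusted p in edgeR's quasi-likelihood test was under 0.05. Against control, LPS raised 32.6% and lowered 33.9% of all tested genes, so most tested genes passed the threshold in that comparison. The dual-treatment group was higher than control for 9.13% of tested genes and lower for 7.02%. Against LPS it was higher for 31.7% and lower for 27.4%. The median log2FC of the members was 0.50, 1.82 and 0.18 in the 3 comparisons, in that order, and the median over all tested genes was -0.01, 0.00 and 0.06. The comparisons share samples, so their values are given side by side and are not independent of each other. With no TMM scaling the median over all genes moved to -0.29 for LPS against control and to 0.38 for the dual treatment against LPS. The share of calls that were higher then moved from 49.0% to 35.6% in the former comparison and from 53.6% to 71.0% in the latter.

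The study used DESeq2 with a fold change over 2 and a p under 0.05. With that cut put on the fold and the unadjusted p of edgeR, which is not the test of the study, the counts of members were close to these. LPS raised 4 members and lowered 1, against 18.3% and 21.8% of tested genes. The dual treatment raised 6 and lowered 0 against control, where 7.04% and 3.43% of genes met the criterion. Against LPS 4 members were higher and 2 lower, beside 20.6% and 14.7% of genes.

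**Figure D1:**
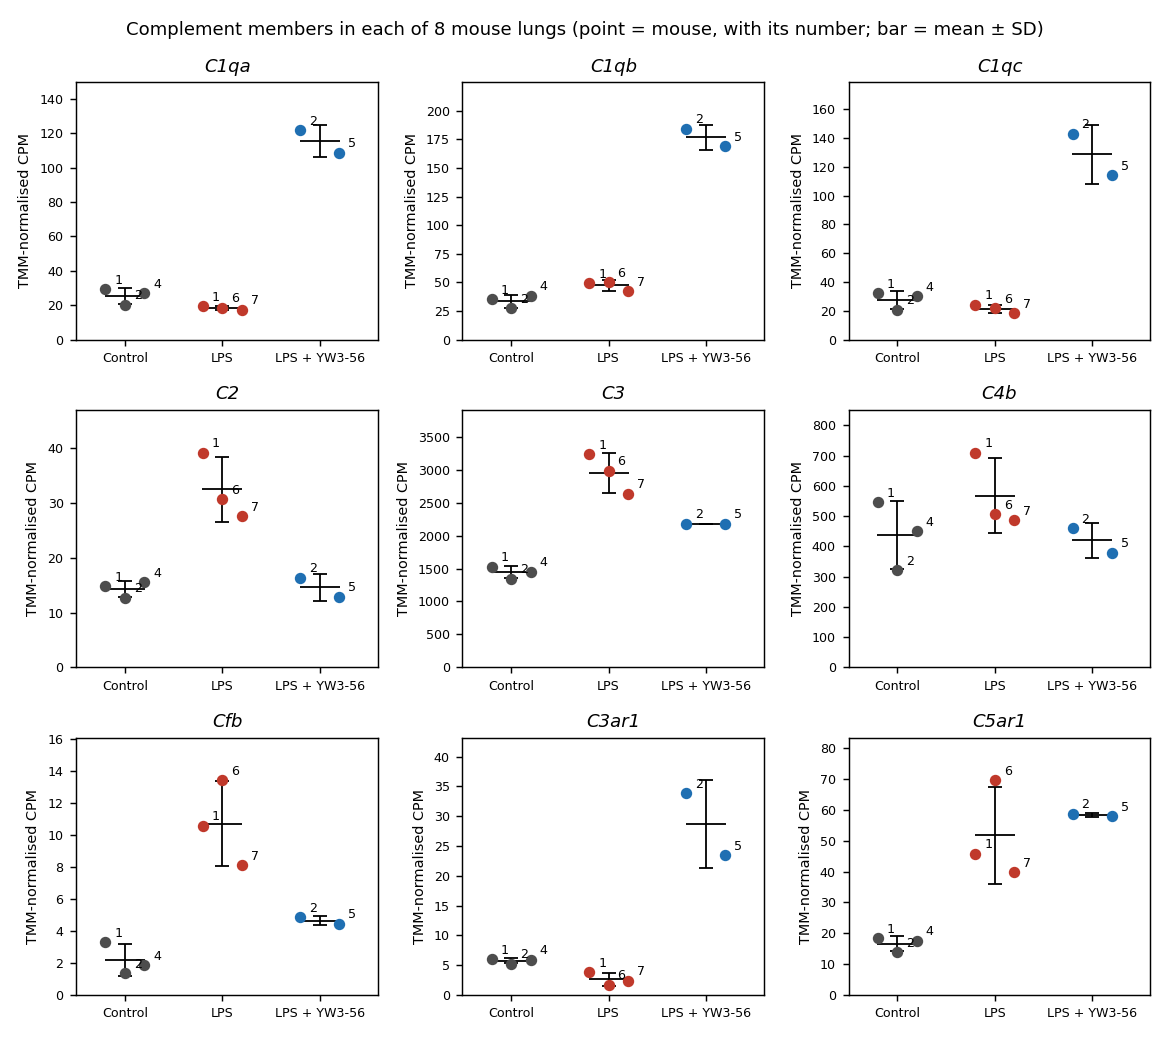
TMM-normalised CPM of the 9 members in each mouse, 1 panel per gene, with the mouse number beside each point and the mean with its SD as a bar (n = 3, 3 and 2). The C1q genes and C3ar1 are highest in both dual-treated mice, while C2, C3 and Cfb are highest in the 3 LPS mice.

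The recognition genes of the classical route were low in control and LPS lungs and several times higher in the dual-treated lungs. C1qa, the A chain (ENSMUSG00000036887), measured 29.3, 20.3 and 27.1 CPM in control mice, 19.6, 18.65 and 17.4 CPM in LPS mice, and 122 and 109 CPM in the dual-treated mice. The B chain gene C1qb (ENSMUSG00000036905) measured 35.1, 27.2 and 38.3 CPM in control, 49.4, 50.4 and 42.3 CPM after LPS, and 184 and 169 CPM after the dual treatment. For C1qc (ENSMUSG00000036896), the C chain, the values were 32.05, 20.7 and 29.98 CPM, then 24.2, 21.8 and 18.4 CPM, then 143 and 114 CPM. Both dual-treated mice lay above all 6 other mice for each of the 3 genes. The 3 genes lie side by side on the minus strand of chromosome 4 (GRCm39), C1qb at 136606009 to 136613511, C1qc at 136616466 to 136620376 and C1qa at 136623223 to 136626161, with 2954 and 2846 bases between neighbours.

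Against control, C1qa rose 4.51-fold in the dual-treatment group (115 ± 9.39 against 25.55 ± 4.66 CPM, SD, n = 2 and 3), a log2FC of 2.17 ± 0.15 (SE) with an edgeR adjusted p of 3.95e-05. C1qb rose 5.26-fold, from 33.55 ± 5.71 to 177 ± 10.6 CPM (edgeR adjusted p = 2.98e-05). C1qc rose 4.66-fold, from 27.6 ± 6.05 to 129 ± 20.3 CPM (edgeR adjusted p = 0.000135). Against the LPS group the increases were 6.22-fold for C1qa, 3.73-fold for C1qb and 5.99-fold for C1qc, with log2FC of 2.64 ± 0.15, 1.90 ± 0.14 and 2.58 ± 0.19 (SE). The 6 calls of the C1q genes held under each of 17 alternatives, with log2FC between 1.81 and 2.97. Those alternatives that add counts of overlapping genes leave the C1q counts unchanged and could not move these calls. With LPS mouse 1 as the only LPS mouse, the log2FC against LPS were 2.55, 1.83 and 2.40.

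LPS without YW3-56 gave small differences in the C1q genes that were not all in 1 direction. C1qb was 1.41-fold higher than control, with all 3 LPS mice above all 3 control mice (edgeR adjusted p = 0.00842). C1qa fell by 0.46 on the log2 scale, and the groups did not overlap (edgeR adjusted p = 0.0142). The log2FC of C1qc was -0.36 ± 0.18 (SE) with overlapping groups and no call (edgeR adjusted p = 0.0968). Without TMM scaling the C1qb log2FC was 0.21 and lost its call, and C1qc gained one at -0.65. The C1qa call was lost without control mouse 1 at -0.36, without control mouse 4 at -0.42 and with LPS mouse 1 alone at -0.38. With LPS mouse 1 alone C1qc was at -0.18, also without a call. C1qc gained a call without control mouse 2 at -0.54, without both mice numbered 2 (chosen after the data were seen) at -0.54, and with no filter on low counts at -0.39.

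Within each library the balance of the 3 chains does not depend on the scaling. C1qb made up 36.4%, 39.9% and 40.2% of the C1q counts in control mice, 53.0%, 55.5% and 54.2% in LPS mice, and 41.0% and 43.2% in the dual-treated mice. The LPS mice thus had a larger C1qb share than any other mouse (54.2 ± 1.24% against 38.8 ± 2.08% in control, SD, n = 3 each), and no test was run on this share. C1qa and C1qc correlated at r = 0.997 over the 8 libraries on the log2 CPM scale, and C1qa and C1qb at r = 0.915. These are descriptions over libraries that share 3 treatment groups.

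The sum of the general macrophage markers was also highest in the dual-treated mice. The 5 general macrophage markers (Adgre1, Csf1r, Cd68, Mertk and Fcgr1, none at 0) summed to 227, 218 and 248 CPM in control mice, 155, 150 and 115 CPM in LPS mice, and 391.8 and 500.2 CPM in the dual-treated mice, with Csf1r the most abundant. All 5 were higher in the dual-treatment group than in the LPS group, and against control 4 were higher and Mertk was lower, at 56.6 and 53.3 CPM against 75.0, 77.7 and 74.5 CPM. The summed C1q genes amounted to 0.426, 0.313 and 0.385 of this marker sum in control, 0.5995, 0.607 and 0.677 in LPS, and 1.146 and 0.784 in the dual-treated mice. No test was run on these ratios, and they depend on the markers summed: with LPS, Csf1r and Mertk were 2.02-fold and 3.30-fold lower than control, Fcgr1 was 3.73-fold higher, and Adgre1 and Cd68 were not called. In whole lung, fewer or more cells of a type and less or more RNA per cell cannot be told apart, and the part of macrophage number in the C1q result was not tested.

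**Figure D2:**
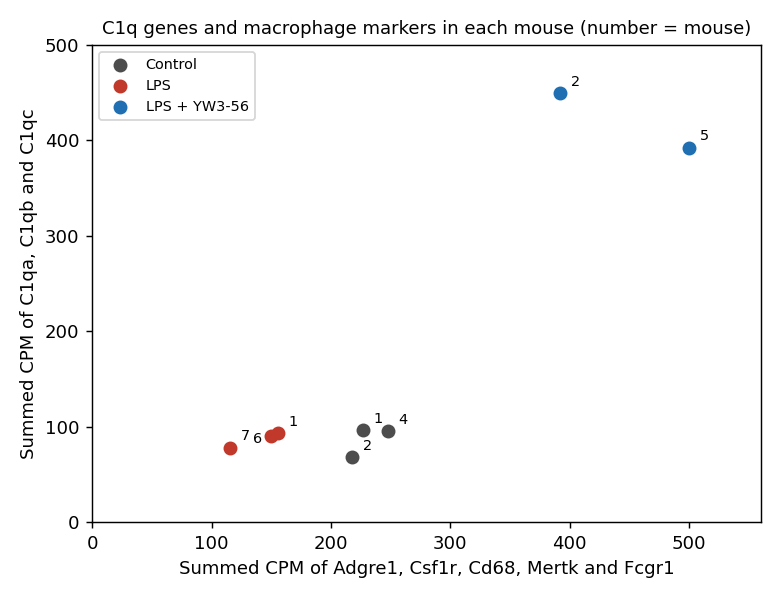
Summed CPM of the 3 C1q genes (vertical axis) against the summed CPM of 5 macrophage markers (horizontal axis), 1 point per mouse with its number. The dual-treated mice, at 392.1 and 449 CPM of C1q genes, lie above and to the right of the other 6 mice, which lie between 68.2 and 96.4 CPM.

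Other myeloid lists differed in pattern. The 5 alveolar macrophage genes, with Chil3 the most abundant by mean, summed to 829, 792 and 787 CPM in control, 946, 1109 and 668 CPM in LPS, and 1674 and 1623 CPM in the dual-treated mice. Fabp4, also an adipocyte gene, was 740.9 CPM of that sum in dual-treated mouse 2 and 38.2 CPM in dual-treated mouse 5. Of the 5 genes, Marco was called higher than control in the dual-treatment group, at 158.5 and 125.2 CPM against 44.9, 18.1 and 27.8 CPM, and Chil3, Fabp4, Car4 and Siglecf were not called. The 4 monocyte genes, with Cd14 the most abundant by mean, summed to 130, 115 and 125 CPM in control, 1722, 1075 and 980 CPM in LPS, and 356 and 366 CPM in the dual-treated mice, although Ccr2 fell by 3.19 on the log2 scale with LPS. Against control, Ly6c2, Cd14 and Nr4a1 were called higher with LPS. With the dual treatment Ly6c2, Cd14 and Ccr2 were called higher, and Nr4a1 was not called. The 7 neutrophil genes summed to 2125, 2948 and 1843 CPM in LPS and 1715 and 2387 CPM in the dual-treated mice, against 215, 118 and 125 CPM in control, with S100a9 and S100a8 as most of each sum. LPS raised all 7 and the dual treatment 6, and the treated groups were not alike gene by gene. Csf3r, Cxcr2, Retnlg and Mmp8 were higher in the dual-treatment group than in LPS. Ly6g was 6.72-fold lower there (edgeR adjusted p = 0.00732) and not called against control, at 0.908 and 3.86 CPM in the dual-treated mice, 10.1, 26.7 and 11.5 CPM in LPS and 0.832, 0.141 and 0.368 CPM in control. The list of 6 interstitial and perivascular macrophage genes was dominated by Lyve1, which lymphatic endothelium also expresses, and summed to 284 to 426 CPM in control, 1564 to 2138 CPM in LPS and 388 and 674 CPM in the dual-treated mice. Cd163 was called higher than control in the dual-treatment group, and Lyve1, Folr2, Mrc1 and Cx3cr1 were not. Cd163 was at 39.1 and 21.5 CPM in the dual-treated mice, 2.91, 4.62 and 5.25 CPM in LPS and 9.003, 7.98 and 6.12 CPM in control. The dual-treated mice differed in Cx3cr1, at 1.77 and 20.3 CPM, below and above the control values of 6.21, 6.10 and 6.71 CPM. No marker in these 4 lists was at 0, and their part in the complement values was not tested.

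The promoters of C1qb and C3ar1 are shown as examples of a C1q gene and a receptor gene that were both higher in the dual-treated lungs, although with LPS C1qb was called higher and C3ar1 lower. C1qc, whose pattern was nearer to that of C3ar1 (r = 0.948 against 0.792 for C1qb), also has an entry, which is not printed. RefSeq promoter entries, from a table on GRCm38.p6, matched 5 of the 9 members (C1qb, C1qc, C3, C3ar1 and C5ar1), and C1qa, C2, C4b and Cfb are named only. Each printed run is the 250 bases before the RefSeq gene start, 5′ to 3′ on the minus strand, and each matched GRCm39 exactly at 1 place: chr4:136613512-136613761 for C1qb, directly upstream of the annotated gene, and chr6:122833117-122833366 for C3ar1, whose last 6 bases lie in the annotated gene. Capitals mark a match to a kB-like motif GGGNNTTTC on either strand.
C1qb: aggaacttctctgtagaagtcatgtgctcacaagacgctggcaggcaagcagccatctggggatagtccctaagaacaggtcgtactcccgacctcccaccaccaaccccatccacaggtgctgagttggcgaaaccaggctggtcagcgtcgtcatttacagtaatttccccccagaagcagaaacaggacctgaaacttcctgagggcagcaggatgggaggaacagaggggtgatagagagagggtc
C3ar1: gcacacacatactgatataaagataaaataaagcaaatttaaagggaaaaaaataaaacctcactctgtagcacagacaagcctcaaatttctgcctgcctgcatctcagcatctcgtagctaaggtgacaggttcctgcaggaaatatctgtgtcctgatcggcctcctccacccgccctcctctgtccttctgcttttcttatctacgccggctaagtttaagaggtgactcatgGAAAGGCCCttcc
The kB-like motif was found in 3.72% of 32851 promoters of this length, the interferon-response motif GAAANNGAA in 7.13% and the STAT motif TTCNNNGAA in 7.02%. Of the 5 member promoters, C3ar1 held a kB-like match, 13 to 5 bases before the RefSeq start on the opposite strand, and C5ar1 held an interferon-response match 66 to 58 bases before its RefSeq start, also on the opposite strand. The last 202 bases of the C5ar1 window, this match included, lie inside the annotated GRCm39 gene, as do the last 151 of the C1qc window and the last 19 of the C3 window. The windows of C1qb, C1qc and C3 held none of the 3 motifs, which says only that these letters are absent from these windows.

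The classical components downstream of C1q followed other patterns. C2, the protease that forms the C3 convertase with C4b (ENSMUSG00000024371, chromosome 17 at 35081578 to 35117241), measured 14.8, 12.7 and 15.5 CPM in control, 39.2, 30.7 and 27.6 CPM in LPS, and 16.3 and 12.9 CPM in the dual-treated mice. All 3 LPS mice lay above the other 5 mice, while 1 dual-treated mouse lay within the control range and the other just above it. LPS raised C2 2.27-fold (log2FC 1.18 ± 0.16 SE, edgeR adjusted p = 0.00016). The dual-treatment group was 2.23-fold lower than the LPS group (edgeR adjusted p = 0.000608), and its log2FC against control was 0.03 ± 0.18 (SE), with no call and a sign that turned in 4 of 17 alternatives.

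C4b (ENSMUSG00000073418, chromosome 17 at 34947354 to 34962912), which is covalently deposited on targets, measured 546, 321 and 449 CPM in control, 709, 507 and 486 CPM in LPS, and 460 and 379 CPM in the dual-treated mice. Control mice overlapped both treated groups, the LPS mice lay above the dual-treated mice, and no comparison called C4b, with log2FC of 0.37 ± 0.21, -0.06 ± 0.24 and -0.44 ± 0.24 (SE) in the order LPS against control, dual treatment against control and dual treatment against LPS. With LPS mouse 1 alone the log2FC of C4b were 0.70 and -0.76 in the comparisons with that group, and without LPS mouse 1 they were 0.19 and -0.25. C4b has a near-identical neighbour, C4a, and reads that fit both may be uncounted or split, so both values are uncertain. C4a was at 1.13, 1.27 and 1.29 CPM in control, 12.2, 6.06 and 6.64 CPM in LPS, and 1.04 and 2.72 CPM in the dual-treated mice, and LPS raised it 6.72-fold (edgeR adjusted p = 0.00023).

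C3 was the most abundant member in every group, in CPM and per kilobase. The gene (ENSMUSG00000024164, chromosome 17 at 57510964 to 57535155) measured 1526, 1344 and 1451 CPM in control, 3240, 2987 and 2634 CPM in LPS, and 2180 and 2181 CPM in the dual-treated mice. The 3 groups did not overlap, with LPS highest, control lowest and the dual-treated mice between them. LPS raised C3 2.05-fold (2954 ± 304 against 1440 ± 91.75 CPM, SD, n = 3 each), a log2FC of 1.04 ± 0.13 (SE) with an edgeR adjusted p of 7.62e-05 that kept its call in all 17 alternatives. Of these, the settings that add counts of overlapping genes leave the C3 counts unchanged.

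The dual-treatment group was 1.51-fold above control for C3 (log2FC 0.60 ± 0.14 SE, edgeR adjusted p = 0.019) and 1.35-fold below LPS (log2FC -0.44 ± 0.14 SE, edgeR adjusted p = 0.0247). Against control the call was lost without control mouse 1 at 0.64, control mouse 2 at 0.55, control mouse 4 at 0.58 or dual-treated mouse 2 at 0.57, and without both mice numbered 2 at 0.52. Against LPS it was lost without LPS mouse 6 at -0.44, dual-treated mouse 2 at -0.46, dual-treated mouse 5 at -0.46 or both mice numbered 2 at -0.46, with the 2 groups fitted alone at -0.45, and without TMM scaling at -0.11.

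Cfb, factor B, the alternative pathway protease (ENSMUSG00000090231, chromosome 17 at 35074852 to 35081559), measured 3.28, 1.36 and 1.84 CPM in control, 10.6, 13.4 and 8.09 CPM in LPS, and 4.86 and 4.43 CPM in the dual-treated mice. Again the groups did not overlap and the dual-treated mice lay between. LPS raised Cfb 4.94-fold (log2FC 2.31 ± 0.33 SE, edgeR adjusted p = 0.00019), from raw counts of 29 to 67 in control to 145 to 232. The dual-treatment group was 2.30-fold lower than LPS (edgeR adjusted p = 0.0157). Its log2FC of 1.11 ± 0.35 (SE) over control had an edgeR adjusted p of 0.0632, and it gained a call in DESeq2 at 1.09, with no filter at 1.10, with at least 10 counts in every library at 1.11 and without control mouse 1 at 1.53. The call against LPS was lost without dual-treated mouse 5, with LPS mouse 1 alone and without TMM scaling, at log2FC of -1.16, -1.19 and -0.87.

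The levels of C2 and Cfb are uncertain because their exons are shared. The genes are 18 bases apart, and an annotated read-through gene, Gm20547, runs over both. Of the exon bases of Cfb, 78.2% are shared with Gm20547 or the antisense gene Nelfe, and 42.8% of those of C2 with Gm20547 or the antisense gene Zbtb12. All 3902 exon bases of Gm20547 lie within C2, Cfb or Nelfe, and it held 1 count in LPS mouse 1 and 0 in the other 7 libraries. How reads on shared bases were counted is not given in the sources used here. When the counts of all overlapping genes were added, the Cfb log2FC was 0.62 for LPS against control and -0.20 for the dual treatment against LPS, which lost its call, and those of C2 were 0.46 and -0.56, which kept theirs. For the dual treatment against control, the Cfb log2FC then moved from 1.11 to 0.42, without a call in either case. That setting gives Cfb the counts of Nelfe, at 411 to 644 per library more than the 29 to 232 of Cfb itself. Adding Gm20547 alone, a setting chosen after the data were seen, kept all C2 and Cfb calls. With 1 count in all, Gm20547 could hardly have changed them, so this setting says nothing about the shared reads. Antisense long noncoding genes also overlap C1qb and C1qc (Gm69251), C3 (Gm65552) and C4b (Gm65055), and the count files do not list them.

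The receptors for C3a and C5a separated. C3ar1, the C3a receptor (ENSMUSG00000040552, chromosome 6 at 122823393 to 122833122), measured 5.97, 5.21 and 5.93 CPM in control, 3.80, 1.675 and 2.34 CPM in LPS, and 33.85 and 23.5 CPM in the dual-treated mice. The 3 groups did not overlap, with LPS lowest and the dual treatment far above the rest. C3ar1 was 5.02-fold above control (28.7 ± 7.33 against 5.70 ± 0.43 CPM, SD, n = 2 and 3) and 11-fold above LPS in the dual-treatment group, with log2FC of 2.33 ± 0.28 and 3.46 ± 0.30 (SE) and edgeR adjusted p of 0.000802 and 1.86e-05. Both calls held in all 17 alternatives, of which those that add counts of overlapping genes leave the C3ar1 counts unchanged. LPS lowered C3ar1 2.19-fold (edgeR adjusted p = 0.00558), a call that was lost with LPS mouse 1 alone, at a log2FC of -0.58.

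C5ar1, the C5a receptor (ENSMUSG00000049130, chromosome 7 at 15980668 to 15993465), rose under both treatments. It measured 18.5, 13.8 and 17.5 CPM in control, 45.8, 69.6 and 39.8 CPM in LPS, and 58.8 and 58.0 CPM in the dual-treated mice. Every treated mouse lay above every control mouse, and the treated groups overlapped. The increases were 3.12-fold for LPS and 3.52-fold for the dual treatment (edgeR adjusted p = 7.82e-05 and 0.000763). Between the treated groups the log2FC was 0.18 ± 0.22 (SE) without a call (edgeR adjusted p = 0.504), and without LPS mouse 6 it was 0.44 with a call. Without LPS mouse 1 and without LPS mouse 7 it was 0.09 and 0.01, and with LPS mouse 1 alone it was 0.34 without a call. The neutrophil sum was above control in every treated mouse, with the differences between genes given above, and the part of these markers in C5ar1 was not tested. With LPS mouse 1 as the only LPS mouse, the log2FC of LPS against control were 1.455 for C2, 1.175 for C3, 2.30 for Cfb, 1.47 for C5ar1 and 0.56 for C1qb, all with their calls kept. The dual treatment against that mouse gave -1.43 for C2, -0.58 for C3 and 2.91 for C3ar1, also with their calls kept. A group of 1 mouse has no spread of its own, so these calls take it from the other groups and are weak support.

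**Figure D3:**
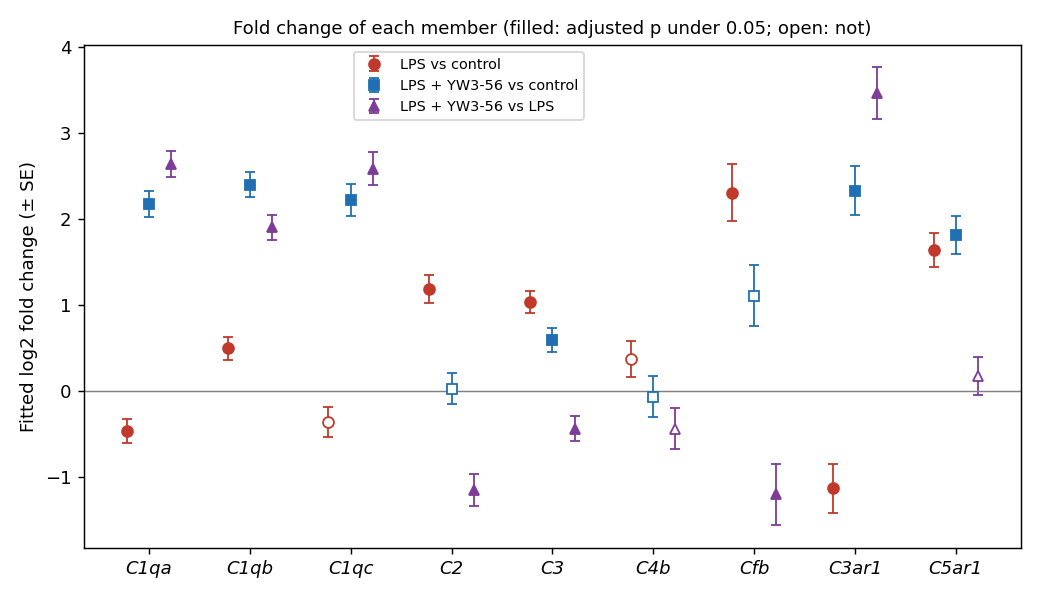
Fitted log2FC of each member (vertical axis, with SE) in the 3 comparisons, filled where the adjusted p was under 0.05 and open where it was not. C1qa and C3ar1 lie below 0 for LPS against control and above 2 in both comparisons of the dual-treatment group, while C2, C3 and Cfb lie above 0 for LPS against control and below 0 for the dual treatment against LPS.

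Levels can be compared between genes only per length, and CPM per kilobase of the canonical transcript is used here. In control lung the order was C3 (279 ± 17.8, SD, n = 3), C4b (80.7 ± 20.7), C1qa (23.5 ± 4.29), C1qc (14.9 ± 3.27), C1qb (13.25 ± 2.25), C5ar1 (6.53 ± 0.96), C2 (5.39 ± 0.56), C3ar1 (1.14 ± 0.09) and Cfb (0.65 ± 0.30). The mice overlapped between C1qc and C1qb and between C5ar1 and C2. In LPS lung C3 was at 573 ± 58.9 and C4b at 104 ± 22.65, C5ar1 stood next at 20.35 ± 6.20, overlapping C1qb at 18.7 ± 1.75, which overlapped C1qa, C2 overlapped C1qc, and C3ar1 was last at 0.52 ± 0.22. In the dual-treated mice C1qa was next to C3, at 106 ± 8.64 against 423 ± 0.19 (SD, n = 2), above C4b at 77.2 ± 10.55, which overlapped C1qb at 69.8, which overlapped C1qc at 69.4, and C3ar1 overlapped C2. With the length of all annotated exons instead, a setting added after the data were seen, C1qb, whose annotated exons are 6246 bases against a canonical 2532, averaged below C5ar1 in control with overlapping mice, and C1qa overlapped C4b in the dual-treated mice. Some overlaps were then gone: in LPS C5ar1 at 20.1 stood clear of C1qa at 11.5 and C1qb at 7.58, and in the dual-treated mice C4b at 69.2, C1qc at 44.96 and C1qb at 28.3 were apart, as were C3ar1 and C2. The order of the C1q genes among their neighbours thus depends on the length used.

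The genes with patterns most like 4 of the members were found by Pearson r of log2 CPM over the 8 libraries, which share 3 treatment groups. For C1qa they were Siglec1 (r = 0.996), P2ry13 (0.985) and Stxbp2 (0.9845). Siglec1, a macrophage sialic acid receptor, measured 12.9, 8.82 and 12.1 CPM in control, 9.37, 9.82 and 9.21 CPM in LPS, and 51.9 and 46.5 CPM in the dual-treated mice. For C5ar1 they were Fpr2 (0.9955), Arhgap30 (0.987) and Rac2 (0.987). Fpr2, a formyl peptide receptor of myeloid cells, was at 9.98, 5.87 and 9.70 CPM in control, 52.7, 75.8 and 38.7 CPM in LPS, and 73.1 and 72.0 CPM in the dual-treated mice. For Cfb they were Rrp15 (0.995), Batf (0.9885) and Gm28875 (0.986), and for C4b Mtx1 (0.924), Wee1 (0.922) and Pabir1 (0.922).

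A list of 49 other complement genes put the members in context. Of these, 33 passed the filter on low counts. LPS raised 12 and lowered 10 of them, the dual treatment raised 4 and lowered 3 against control, and 10 were higher and 9 lower in the dual-treatment group than in LPS. These counts can be read against the shares of all tested genes above. The median log2FC of the 33 was 0.37, 0.12 and 0.05 in the 3 comparisons, against -0.01, 0.00 and 0.06 over all genes. Mbl2, C8a and C8b had no count in any library, and C9 had at most 3. With LPS mouse 1 alone, the calls lost among those of the list were Hc at a log2FC of -0.58 and Cd46 at -0.79 for LPS against control, and Vtn at 1.31 and Cd46 at 0.90 for the dual treatment against LPS.

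In the classical route, the C1r and C1s proteases behaved unlike the C1q chains with which they form C1. C1ra measured 82.0, 69.2 and 72.4 CPM in control, 250, 250 and 214 CPM in LPS, and 168 and 128 CPM in the dual-treated mice. LPS raised it 3.19-fold, and the dual-treatment group lay 1.99-fold above control and 1.61-fold below LPS (edgeR adjusted p = 5.01e-06, 0.00187 and 0.00291). The call against control was lost without both mice numbered 2 at 0.69, and the call against LPS without TMM scaling at -0.35. C1s1 rose 1.78-fold with LPS and was 1.84-fold lower in the dual-treatment group than in LPS. Its dual-treated values, 91.6 and 86.3 CPM, lay within and just below the control range of 87.7 to 99.1 CPM. Of the lectin route, Colec11 was low, at 0.538, 0.610 and 0.506 CPM in control, 2.85, 1.85 and 2.29 CPM in LPS, and 0.454 and 0.263 CPM in the dual-treated mice. It rose 4.185-fold with LPS and was 6.41-fold lower in the dual-treatment group than in LPS (edgeR adjusted p = 0.000768 and 0.000706). The scavenger-type Colec12 was 2.05-fold lower than control after LPS and 1.69-fold lower after the dual treatment, a call lost without dual-treated mouse 2 at a log2FC of -0.63 and without both mice numbered 2 at -0.62.

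Properdin, the stabiliser of the alternative convertase, is encoded by Cfp and is made by myeloid cells. Cfp measured 20.4, 17.5 and 25.3 CPM in control, 47.0, 54.2 and 33.2 CPM in LPS, and 94.8 and 78.7 CPM in the dual-treated mice. It rose 2.13-fold with LPS and 4.12-fold with the dual treatment, and was 1.94-fold higher in the latter than in the former (edgeR adjusted p = 0.000812, 0.000337 and 0.00332). Cfd, the factor D protease known as adipsin, varied within groups instead, at 43.9, 235.5 and 57.3 CPM in control, 58.1, 120 and 128 CPM in LPS, and 345 and 25.4 CPM in the dual-treated mice. Its highest values were in control mouse 2 and dual-treated mouse 2, the mice with the highest adipocyte marker sums, and no comparison called it.

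Among terminal genes, Hc, which encodes C5, the source of C5a, was lower under both treatments. It measured 444, 415 and 490 CPM in control, 301, 203 and 211 CPM in LPS, and 51.6 and 151 CPM in the dual-treated mice. The dual-treatment group was 4.44-fold lower than control (log2FC -2.15 ± 0.39 SE, edgeR adjusted p = 0.00634), a call that held in all 15 alternatives, at a log2FC of -1.605 without dual-treated mouse 2 and -3.15 without dual-treated mouse 5. It was 2.35-fold lower than LPS (edgeR adjusted p = 0.0182), with log2FC of -0.68 without dual-treated mouse 2 and -2.22 without dual-treated mouse 5. With LPS Hc fell by 0.92 on the log2 scale (edgeR adjusted p = 0.0298). That call was lost without control mouse 1 at -0.93, control mouse 4 at -0.86, LPS mouse 6 at -0.81 or LPS mouse 7 at -0.83, and with LPS mouse 1 alone at -0.58. C7 and C6 rose 2.51-fold and 1.61-fold with LPS and were both lower in the dual-treatment group than in LPS. The C6 call for LPS was lost without TMM scaling, at a log2FC of 0.41.

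The regulators were mixed. Clu, a fluid-phase inhibitor of the attack complex, measured 323, 280 and 319 CPM in control, 670, 633 and 605 CPM in LPS, and 236 and 182 CPM in the dual-treated mice. It rose 2.07-fold with LPS, while the dual-treatment group lay 3.05-fold below LPS (edgeR adjusted p = 6.05e-05 and 2.4e-05). Against control the dual-treatment group was 1.47-fold lower (edgeR adjusted p = 0.0262), a call lost without control mouse 1 at a log2FC of -0.52, control mouse 2 at -0.62, control mouse 4 at -0.56 and dual-treated mouse 5 at -0.41. Vtn was 4.43-fold lower than control after LPS, and Cpn1, a subunit of the carboxypeptidase that inactivates C3a and C5a, 2.68-fold lower. Vtn was 2.09-fold higher in the dual-treatment group than in LPS, a call lost in 5 of 15 alternatives: without LPS mouse 1 at a log2FC of 0.95, LPS mouse 7 at 0.97 or dual-treated mouse 5 at 0.23, with LPS mouse 1 alone at 1.31 and with the 2 groups fitted alone at 1.04. Serping1, the C1 inhibitor, rose 1.48-fold with LPS. The membrane regulator Cd55 was not called, while Cd46 and Cd59a were 1.63-fold and 1.47-fold lower with LPS than in control and were higher in the dual-treatment group than in LPS. Of 7 tested membrane regulators, LPS raised 1 and lowered 3, beside 32.6% and 33.9% of all tested genes. In the dual-treatment group 3 were higher and 1 lower than in LPS, beside 31.7% and 27.4% of all tested genes. Cr1l rose 1.29-fold with LPS, a call lost in 5 of 15 alternatives. Vsig4 (0 to 5 counts per LPS mouse) was 4.86-fold lower with LPS, a call lost in 6 of 13. It was 9.18-fold higher in the dual-treatment group than in LPS, lost in 1 of 14. Cd59b (2 to 5 counts per dual-treated mouse) was 4.81-fold lower there than in LPS, lost in 3 of 14. The Cd46 call of LPS against control was lost in 6 of 15 alternatives: without control mouse 2 at a log2FC of -0.61, control mouse 4 at -0.64, LPS mouse 1 at -0.66, LPS mouse 6 at -0.56 or both mice numbered 2 at -0.62, and with LPS mouse 1 alone at -0.79. Its call between the treated groups was lost in 8 of 15: without control mouse 4 at a log2FC of 0.79, LPS mouse 1 at 0.77, LPS mouse 6 at 0.68, dual-treated mouse 2 at 0.86, dual-treated mouse 5 at 0.73 or both mice numbered 2 at 0.86, with LPS mouse 1 alone at 0.90 and with the 2 groups fitted alone at 0.81. The Cd59a call was lost against control without control mouse 1 at a log2FC of -0.52 or control mouse 4 at -0.53, and between the treated groups without dual-treated mouse 5 at 0.67.

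Of the 6 other receptor genes, 5 were higher in the dual-treatment group than in LPS, as were 31.7% of all tested genes. Itgam and Itgb2 encode complement receptor 3. Itgam measured 6.66, 4.79 and 6.76 CPM in control, 42.4, 73.4 and 50.5 CPM in LPS, and 129.7 and 83.4 CPM in the dual-treated mice, and rose 9.13-fold with LPS and 17.5-fold with the dual treatment (edgeR adjusted p = 5.96e-06 and 3.95e-05). Itgb2 rose 2.15-fold and 4.26-fold. The log2FC of Itgam between the treated groups was 0.94 and lost its call without dual-treated mouse 2 and without both mice numbered 2, at 0.56 each.

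Cd93, C5ar2 and Cr2 formed another pattern among the receptors, low in LPS lungs. Cd93, a surface glycoprotein of endothelium and myeloid cells once named a C1q receptor, measured 492, 473 and 469 CPM in control, 270, 168 and 202 CPM in LPS, and 672 and 497 CPM in the dual-treated mice. With LPS it fell by 1.17 on the log2 scale, and it was 2.75-fold higher in the dual-treatment group than in LPS (edgeR adjusted p = 0.000332 and 0.000211). Of the endothelial markers in the lung list, Pecam1 was at 618, 679 and 672 CPM in control, 254, 218 and 213 CPM in LPS, and 1073 and 912 CPM in the dual-treated mice, 2.875-fold lower with LPS than in control and 4.35-fold higher in the dual-treatment group than in LPS. Cldn5, the other one, was at 576 to 698 CPM over the 8 mice with no call, and the part of endothelium in Cd93 was not tested. C5ar2, the other C5a receptor, was low, at most 3.33 CPM, with 8 to 16 counts per LPS mouse. It was 3.38-fold lower with LPS than in control and 4.06-fold higher in the dual-treatment group than in LPS. Its direction under LPS was opposite to that of C5ar1. Cr2, a B cell receptor for C3 fragments, was at most 1.57 CPM, with 0 to 2 counts per LPS mouse, and its call between the treated groups was lost without dual-treated mouse 5 at a log2FC of 2.58.

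**Figure D4:**
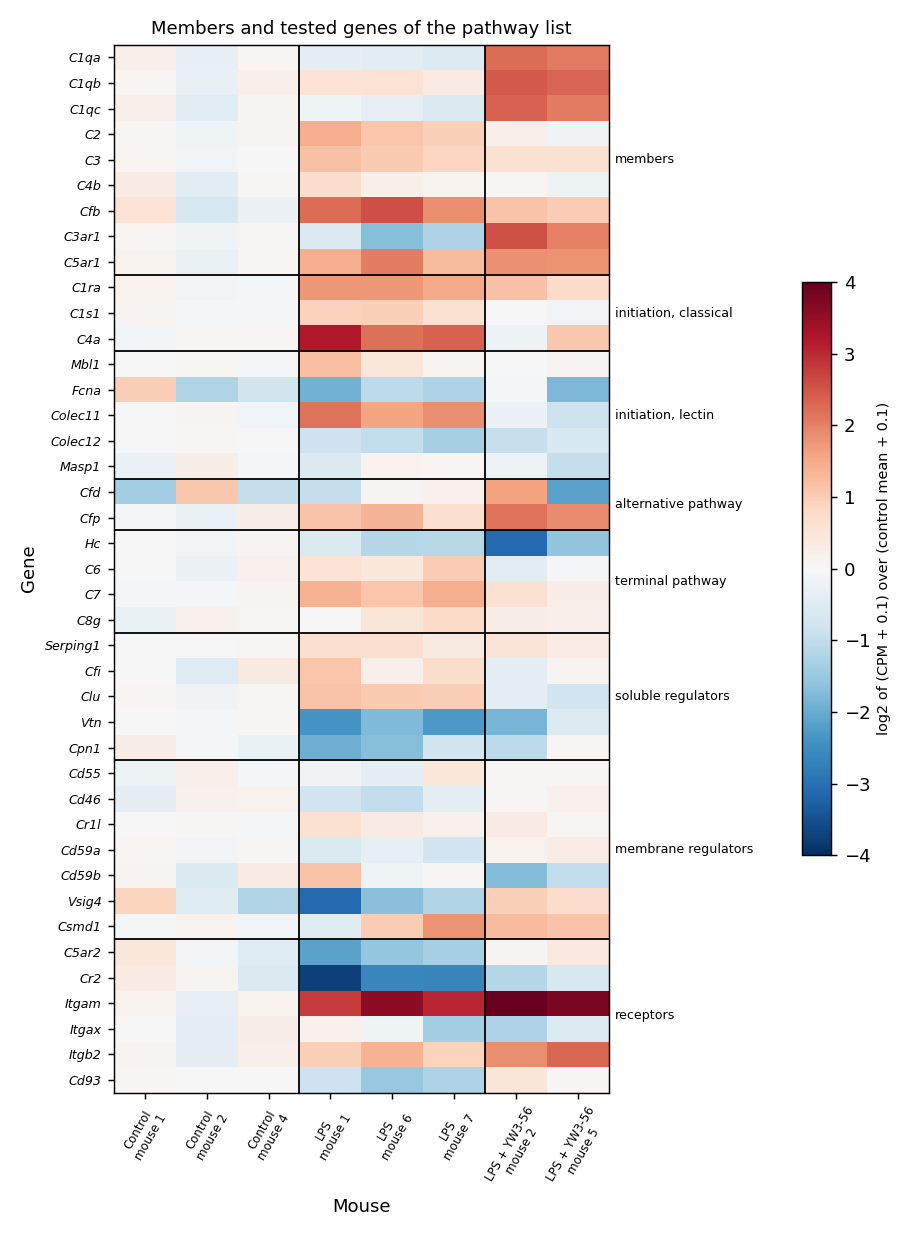
Log2 of CPM plus 0.1 over the control mean plus 0.1, for the 9 members and selected tested genes of the pathway list, by role (down), in each mouse (across), with colours ending at -4 and 4. Itgam is the most strongly raised gene in the dual-treated mice, and Cfd differs between mice of the same group.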

How the data were processed

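Lung RNA of 8 mice was sequenced as paired ends on a NovaSeq. By the methods and processing notes, FastQC 0.11.9 and Trim Galore preceded alignment to GRCm39 by HISAT2 2.2.1, and the authors deposited raw featureCounts 2.0.1 counts per gene. Annotation release, strand and overlap settings are not given in the sources used here. Of 55416 identifiers, 54749 matched GENCODE M39, which gave symbols and positions. The test was edgeR 4.0.16 under R 4.3.3, with filterByExpr, TMM and a quasi-likelihood test over all 8 libraries with group as the only term (5 residual degrees of freedom), Benjamini-Hochberg adjustment over 18560 genes and a threshold of 0.05. SE was taken from log2FC and F. DESeq2 1.42.0, other scalings and filters, the groups compared alone, a fold over 2 with an unadjusted p under 0.05, added counts of overlapping genes and leaving mice out were the alternatives. Correlations used log2 CPM with a prior count of 2 and genes of at least 5 CPM. Named were all members, overlapping genes, the most similar genes, and called pathway genes. The rule for pathway genes was a fold over 2 and a mean of at least 1 CPM, or the 3 largest of a role. It was not kept for the membrane regulators. Others, such as Cfd, Cd55, Cr1l, Vsig4, Cd59b and the genes at 0, were named after their values were seen. The members and lists were chosen with earlier results of these data known. The procedure was tested on simulated data. No 2 libraries were identical. Protein sequences were not used here. Some genes of the pathway list are in its counts and medians but are not reported here.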

Additional observations from a re-analysis of the deposited data

How the results depend on the processing

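Among the alternatives, those that add counts of overlapping genes alter only C2 and Cfb. For the other members they in effect repeat the main fit, and they are counted below as unchanged. Of 27 member results (9 genes in 3 comparisons), 16 kept direction and side of the threshold in all alternatives. Of 459 values, 424 did, 20 lost a call, 9 gained one and 6 changed sign. All 6 were uncalled values near 0 for the dual treatment against control: C2 at -0.06 without control mouse 2, -0.19 without dual-treated mouse 2, -0.10 with overlapping genes added and -0.27 without both mice numbered 2 (chosen after seeing the data), and C4b at 0.12 without control mouse 1 and 0.04 without dual-treated mouse 5. Without 1 mouse C2 ranged from -0.19 to 0.16 and C4b from -0.25 to 0.12. The 48 called pathway results gave 656 of 710 values on the same side, 54 without a call and 0 of opposite sign. Members lower with LPS numbered 2, but 1 by a fold over 2 and an unadjusted p under 0.05, 0 with LPS mouse 1 alone and 1 to 3 without 1 mouse (1 without control mouse 1 or 4). Members lower in the dual treatment than in LPS numbered 3, but 1 without TMM scaling and 1 to 3 without 1 mouse (1 without dual-treated mouse 5). Pathway genes lower in the dual treatment than in control numbered 3, but 5 with no filter, where more genes are tested, and 2 to 4 without 1 mouse. Between the treated groups, 10 pathway genes were higher and 9 lower, but 6 and 5 by that fold and p, and the higher ones numbered 6 to 10 without 1 mouse (6 without dual-treated mouse 5). The cause was not tested. Leaving out a dual-treated mouse, or LPS mice 6 and 7, leaves a group of 1, assumed to vary like the other groups. No paired analysis was possible, because each mouse is in 1 group only and neither labels nor methods pair mice between groups. The dual-treatment group has 2 mice and Cfb had 29 to 67 counts in control, and a missing call does not show that groups were alike.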
